A study of Homo sapiens with 6 samples.

Results

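The EYA, sine oculis homeobox (SIX-family) and DACH proteins act together in the control of organ development. The genes of this network described here, 9 of the 60483 genes in the count table, were EYA1, EYA2, EYA3, EYA4, SIX2, SIX4, SIX5, DACH1 and DACH2. They were taken by symbol from a set selected on their fold changes between KO and WT libraries, so the differences between the groups are given for these genes as a description. Where the calls of the fit across all genes are counted for them, the counts restate that selection and are not evidence. A2780, a human ovarian carcinoma cell line, was profiled by RNA-seq in 3 libraries with the WT genotype and in 3 libraries of A2780 cells with a stable CDK12 KO. The KO cells were 1 clone, isolated after a second round of transfection with a CRISPR/Cas9 plasmid (U6gRNA-Cas9-2A-GFP) that targets exon 1 of CDK12, a kinase of elongating RNA polymerase II. The groups shared the cell line, the medium and the library kit. By the study's chromosome analysis the clone also has more chromosomes than the WT cells. Both carry a rearranged form of the chromosome that bears EYA4, which is duplicated in the clone. Nothing in the sources says whether the 3 libraries of a group came from separate cultures, so the p-values measure only the spread between these libraries, which may be technical, and an effect of the genotype and a feature of this clone cannot be told apart.

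SIX-family proteins are homeodomain transcription factors that bind DNA but activate poorly by themselves. EYA proteins are their co-activators and carry a phosphatase domain of the haloacid dehalogenase class, which also removes the tyrosine phosphate of the histone variant H2AX in the DNA damage response. DACH proteins, relatives of the SKI and SKIL repressors, bind the same complexes and recruit corepressors, and PAX factors act upstream of the network in eye, ear, kidney and muscle.

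The libraries held from 11098400 to 30899045 counts, and 16198 genes passed the filter on low counts. CDK12 itself had 2831, 3759 and 1294 counts in the WT libraries and 2432, 2504 and 1818 in the KO libraries, and since reads of edited and unedited transcripts are counted alike, this does not check the genotype. Of 8 genes listed as ovarian epithelial carcinoma markers, KRT18, KRT8 and EPCAM were tested and none passed both thresholds, while PAX8, WT1, MUC16 and CDH1 had at most 6 counts in any library. The summed level of the 8 genes was 68.5 to 74.0 CPM (counts scaled to a common library size) in WT and 115 to 119 in KO libraries. Most of it came from KRT18, with means of 59.9 CPM in WT and 103 in KO libraries. KRT8 was also higher in KO libraries (7.34 and 11.0 CPM), whereas EPCAM was lower (3.19 and 2.17 CPM). The 4 blood markers summed to at most 0.367 CPM and the 3 endothelial markers to at most 0.892 CPM. Of the latter, VWF was up-regulated at a low level, with means of 0.192 CPM in WT and 0.704 in KO libraries. The 4 fibroblast genes (COL1A1, COL1A2, DCN and PDGFRB) summed to 5150 to 5280 CPM in WT and 2680 to 2810 in KO libraries, 3 of them being down-regulated. The part of these shifts in the values below was not tested, and in bulk RNA fewer expressing cells and less RNA per cell cannot be told apart.

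The network was present in A2780 cells as 3 EYA, 3 SIX-family and 1 DACH gene. EYA4 had no count in any KO library, DACH2 differed next most, SIX4, SIX2 and EYA3 were moderately lower, and EYA2 and SIX5 differed little. EYA1 and DACH1 were at or close to 0 in both groups. A gene was called down-regulated or up-regulated when its adjusted p was below 0.05 and its log2 fold change passed -1 or 1. By this rule, 2 of the 7 members that passed the filter were called down-regulated, beside 7.73% of all tested genes, and none was called up-regulated, beside 8.30% of all tested genes. With the adjusted p alone, 5 were lower, beside 32.0% of all tested genes, and 0 higher, beside 31.9%. In 6 of the 7 the highest KO value was lower than the lowest WT value, beside 33.5% of all tested genes, and the reverse held for none, beside 32.8%. The median log2 fold change of the 7 was -0.41, with EYA4 at its fitted value or at its bound, and that of all tested genes was 0.00. The filter removed EYA1 and DACH1, so these 7 do not stand for all 9 genes, and their choice used this same contrast.

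**Figure D1:**
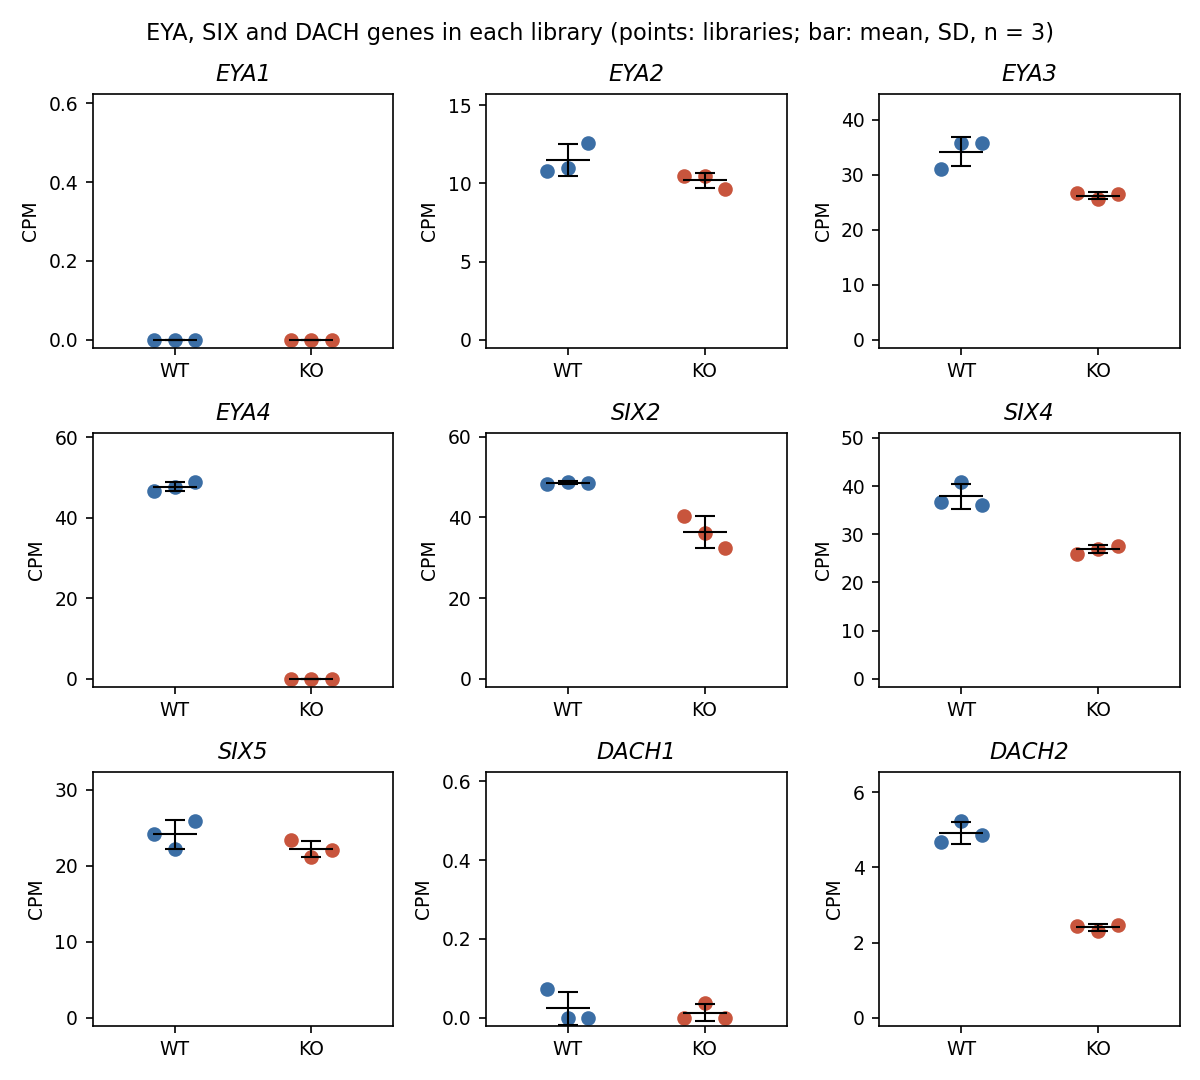
Level of each of the 9 genes in every library, in CPM on linear axes that differ between panels; points are libraries (blue WT, red KO) and bars show the mean and SD of 3 libraries. EYA4 lies between 46.5 and 48.9 CPM in WT and at 0 in all 3 KO libraries, and only EYA1, SIX5 and DACH1 show groups that overlap.

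EYA4 (ENSG00000112319) spans 292 kb of chromosome 6 (GRCh38, 133240514 to 133532128, plus strand) and encodes the EYA protein whose mutations cause hereditary deafness and dilated cardiomyopathy. Its counts in the WT libraries were 1274, 1426 and 543, which gave 46.5, 47.6 and 48.9 CPM. The KO libraries held 0, 0 and 0 counts. The groups were therefore apart in every library, and the WT mean of 47.7 ± 1.20 CPM (SD, n = 3) was at least 283-fold above the highest KO floor, the level that 3 counts give in a library (0.169 CPM). Over the 68324260 counts of the 3 KO libraries together, a count of 0 allows up to 0.0439 CPM, for counting error only. Of all 16198 tested genes, 96 had no count in any KO library, and EYA4 had rank 3 among these by WT level. Of 5327 genes with at least 500 counts in every WT library, 3 had no count in any KO library, namely EYA4, DLX2 and FIGN. At most 3 counts in each KO library were held by 10 of the 5327. The limit of 500 was chosen after the values were seen. It uses the group in which EYA4 was high, so these counts are a description. DLX2, a homeobox factor of forebrain and branchial arch development, had 5864, 5945 and 2344 counts in WT, and FIGN, an ATPase that severs microtubules, had 1922, 2043 and 758.

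Promoter sequence was given by RefSeq (GRCh38.p14) for 6 of the 9 genes, as the 250 bases before and the 50 bases after an annotated start. The EYA4, EYA3 and DACH2 promoters are shown because these genes span the differences seen, from no KO count (EYA4) through a stronger (DACH2) to a milder one (EYA3), and their CpG dinucleotides, the sites of DNA methylation, are in capitals. Each is written 5′ to 3′ on the strand of its gene.
EYA4, chr6:133241107-133241406, plus strand: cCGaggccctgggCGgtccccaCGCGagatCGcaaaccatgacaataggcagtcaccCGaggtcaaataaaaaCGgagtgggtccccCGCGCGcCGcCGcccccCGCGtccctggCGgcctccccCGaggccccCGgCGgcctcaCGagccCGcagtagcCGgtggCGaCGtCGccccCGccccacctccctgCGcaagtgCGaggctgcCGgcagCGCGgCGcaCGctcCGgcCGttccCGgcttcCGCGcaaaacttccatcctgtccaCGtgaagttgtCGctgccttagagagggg
EYA3, chr1:28088561-28088860, minus strand: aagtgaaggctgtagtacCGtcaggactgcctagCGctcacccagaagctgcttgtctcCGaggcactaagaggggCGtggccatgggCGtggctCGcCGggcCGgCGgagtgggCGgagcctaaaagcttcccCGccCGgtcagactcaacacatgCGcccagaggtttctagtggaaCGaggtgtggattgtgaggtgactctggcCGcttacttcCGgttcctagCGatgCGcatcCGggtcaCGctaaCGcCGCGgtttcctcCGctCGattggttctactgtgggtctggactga
DACH2, chrX:86148201-86148500, plus strand: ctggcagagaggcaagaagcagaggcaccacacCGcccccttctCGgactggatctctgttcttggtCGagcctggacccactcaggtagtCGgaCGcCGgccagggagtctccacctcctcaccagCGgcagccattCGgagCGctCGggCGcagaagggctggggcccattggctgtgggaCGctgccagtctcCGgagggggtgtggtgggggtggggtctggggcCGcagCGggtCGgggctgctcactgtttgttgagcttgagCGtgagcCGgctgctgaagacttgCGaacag
The EYA4 window held 39 CpG, a number that 8.71% of all 35116 RefSeq promoters of this length reached, against a median of 14. The EYA3 window held 25 CpG (32.0% of promoters held as many) and the DACH2 window 19 (42.9%), while a second annotated DACH2 start had none. SIX2 had 29, SIX4 14 and DACH1 12. The MEF3 motif, TCAGGTTTC, which SIX-family proteins are known to bind in muscle genes, was searched on both strands. It was found in 0 of the 7 member promoters and in 0.362% of all promoters, which says only that these letters are not in these windows. No methylation or factor binding was measured here.

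EYA3 and EYA2 were the EYA genes left in the KO cells. EYA3 (ENSG00000158161, chromosome 1, 27970344 to 28088637, minus strand), which with EYA1 is best known for H2AX dephosphorylation, had 31.1, 35.8 and 35.7 CPM in WT libraries and 26.7, 25.5 and 26.4 in the KO libraries. All KO values lay below all WT values, with means of 34.2 ± 2.69 and 26.2 ± 0.650 CPM (SD, n = 3 each) and a log2 fold change of -0.38 (SE 0.0672). EYA2 (ENSG00000064655, chromosome 20, 46894624 to 47188844, plus strand), a co-activator of muscle precursors, had 10.8, 11.0 and 12.6 CPM in WT libraries and 10.5, 10.5 and 9.66 in the KO libraries. The EYA2 groups did not overlap but nearly met, and the log2 fold change was -0.13 (SE 0.0930). The WT spread of EYA3 had a coefficient of variation of 7.87%, against 3.93% from counting alone, whereas that of EYA4 was 2.52%, within its counting error of 3.33%. EYA4 was therefore the steadiest of the EYA genes between WT libraries.

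SIX2, SIX4 and SIX5 were all expressed, and SIX2 was the most abundant of the 9 genes per length. SIX2 (ENSG00000170577, chromosome 2, 45005182 to 45009452, minus strand), which keeps nephron progenitors undifferentiated, had 48.3, 48.8 and 48.6 CPM in WT libraries and 40.3, 36.2 and 32.4 in the KO libraries. The groups were apart and unequal in spread. The WT values had a coefficient of variation of 0.569%, below the 3.31% that counting allows, and the KO values one of 11.0%, above the counting error of 3.55%. The log2 fold change of SIX2 was -0.41 (SE 0.0646). SIX4 (ENSG00000100625, chromosome 14, 60709539 to 60724351, minus strand), which acts in muscle and kidney development, had 36.7, 40.9 and 36.1 CPM in WT libraries and 26.0, 27.0 and 27.6 in the KO libraries. Its groups were apart, with means of 37.9 ± 2.61 and 26.9 ± 0.779 CPM (SD, n = 3 each) and a log2 fold change of -0.51 (SE 0.0648). SIX5 (ENSG00000177045, chromosome 19, 45764785 to 45769252, minus strand), a gene next to the repeat expanded in myotonic dystrophy, had 24.1, 22.2 and 25.9 CPM in WT libraries and 23.4, 21.2 and 22.1 in the KO libraries. SIX5 was the one expressed member whose groups overlapped, with a log2 fold change of -0.10 (SE 0.0724).

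DACH2 was the only DACH gene with counts to compare, and it was the least abundant expressed member. DACH2 (ENSG00000126733, chromosome X, 86148451 to 86832604, plus strand), a corepressor expressed in developing muscle, had 128, 157 and 54 counts in WT and 60, 62 and 44 in KO libraries. These counts gave 4.67, 5.24 and 4.86 CPM in WT and 2.44, 2.30 and 2.47 CPM in KO libraries. The groups did not overlap, with means of 4.92 ± 0.289 and 2.41 ± 0.0901 CPM (SD, n = 3 each). The coefficients of variation were 5.88% in WT and 3.75% in KO libraries, below the 10.4% and 13.6% from counting alone. These SDs therefore understate the counting error. The log2 fold change of -1.04 (SE 0.145) lay just past the threshold of -1, and without WT replicate 2 it was -0.98, so that the call was lost. DACH1 (ENSG00000276644, chromosome 13, 71437966 to 71867204, minus strand), the family member most studied as a repressor in carcinomas, had 2, 0 and 0 counts in WT and 0, 1 and 0 in KO libraries. EYA1 (ENSG00000104313, chromosome 8, 71197433 to 71592025, minus strand), the gene of branchio-oto-renal syndrome, had 0 counts in all 6 libraries. Neither was detectable at this depth, where 3 counts gave 0.10 to 0.27 CPM, and no fold is given for them.

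Levels were compared between genes as CPM per kilobase of merged exons. In WT cells the order was SIX2 with 22.0 ± 0.125 CPM per kilobase, SIX5 with 6.72 ± 0.527, SIX4 with 5.60 ± 0.386, EYA3 with 5.32 ± 0.419, EYA4 with 3.25 ± 0.0820, EYA2 with 3.17 ± 0.278 and DACH2 with 0.700 ± 0.0411 (SD, n = 3 each). SIX4 and EYA3 overlapped, as did EYA4 and EYA2, so these neighbours did not differ beyond their spread. In KO cells SIX2 stayed first with 16.5 ± 1.81 and SIX5 second with 6.21 ± 0.307 CPM per kilobase. EYA3 (4.08 ± 0.101) and SIX4 (3.97 ± 0.115) again overlapped, EYA2 followed with 2.83 ± 0.135, and DACH2 was last of the expressed genes with 0.342 ± 0.0128. The place of EYA4 depended on the length used. Per kilobase of its longest transcript (6106 bases, against 14674 bases of merged exons) it reached 7.81 ± 0.197 CPM in WT, second to SIX2 and overlapping SIX5.

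**Figure D2:**
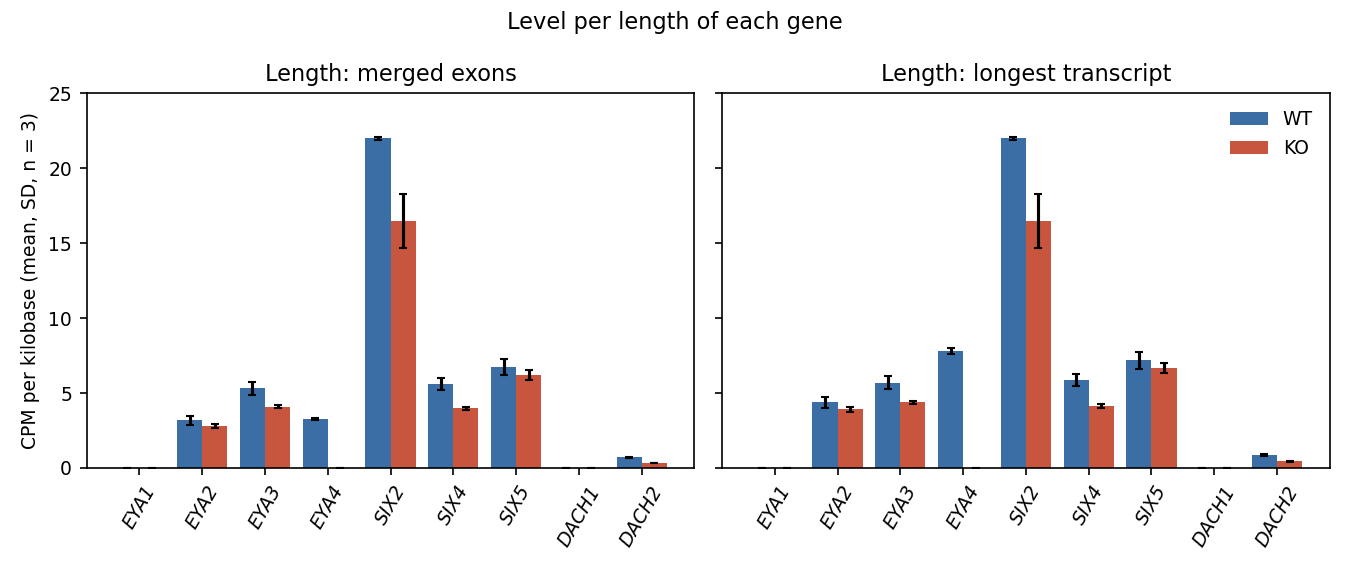
Mean level of each gene in CPM per kilobase (linear axis; bars WT and KO, error bars SD of 3 libraries), with length taken as merged exons on the left and as the longest transcript on the right. SIX2 is highest in both panels at 22.0 CPM per kilobase in WT, whereas EYA4 moves from 3.25 to 7.81 with the shorter length.

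EYA3 gave the largest EYA share per merged exon length in both groups. Per kilobase of merged exons, EYA3 gave 45.4%, EYA4 27.7% and EYA2 27.0% of a summed EYA level of 11.7 CPM per kilobase in WT cells. In KO cells EYA3 gave 59.1% and EYA2 40.9% of 6.91 CPM per kilobase. With the longest transcripts, EYA4 gave 43.6% of 17.9 CPM per kilobase in WT, and the KO sum was 8.28. Among the 3 SIX-family members SIX2 gave 64.1% of 34.3 CPM per kilobase in WT and 61.8% of 26.6 in KO cells, so the proportions there were closer between the groups. DACH2 made up 99.4% of the DACH level in both.

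The proteins encoded by these genes are related within families. Aligned over their annotated coding sequences, EYA4 (639 residues) was closest to EYA1 (592 residues), with 75.3% identity, then to EYA2 with 62.1% and to EYA3 with 56.8%. The EYA4 relative of highest identity was thus the one with no count in either group. Identities were 59.5% for SIX2 and SIX4, 52.9% for SIX2 and SIX5, 43.8% for SIX4 and SIX5, and 66.7% for DACH1 and DACH2. None of the 36 pairs of members shared a stretch of 75 bases, the read length, in their annotated transcripts. A read of one member therefore could not match another over its whole length without a mismatch.

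EYA4 lay in a stretch of chromosome 6 where the other expressed genes were also lower in KO cells. The 11 tested genes within 1 Mb of either side, a distance chosen after the values were seen, all had a negative log2 fold change. Among all tested genes, 8096 of 16198 did. Of the 11, 7 were down-regulated (7.73% of all tested genes were). All KO values lay below all WT values for 10 of the 11 (33.5% of all tested genes). The median log2 fold change was -1.11, and the values ran from -0.51 for SGK1, a kinase that regulates ion channels, down to LINC00326, a long non-coding RNA with 21, 23 and 7 counts in WT and 0, 0 and 0 in KO libraries (at least 4.28-fold lower). Among the genes between them, RPS12, a protein of the small ribosomal subunit, had 579 ± 32.6 CPM in WT against 336 ± 18.0 CPM in KO libraries (SD, n = 3 each), and its log2 fold change was -0.78 (SE 0.0507, adjusted p = 5.86e-15, edgeR quasi-likelihood test). SNORD101, SNORD100 and SNORA33 lie within RPS12, so 4 of the 11 genes are 1 locus. TBPL1, a relative of the TATA-binding protein, was the nearest tested protein-coding gene on the other side and had 17.2 ± 1.36 and 10.8 ± 0.517 CPM (log2 fold change -0.69, SE 0.0859, adjusted p = 2.48e-08, edgeR). SLC18B1, a vesicular polyamine transporter, had a log2 fold change of -1.20 (SE 0.0718) and STX7, an endosomal syntaxin, one of -1.0 (SE 0.0786), which lay at the threshold. MOXD1, a monooxygenase relative, had 31, 40 and 9 counts in WT and 2, 2 and 1 in KO libraries. EYA4 itself, at least 283-fold lower, had a larger difference than each of these genes with KO counts. TARID, a non-coding RNA that overlaps EYA4 on the opposite strand, had 4, 2 and 1 counts in WT and 0, 1 and 0 in KO libraries and was not tested.

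Farther out, between 1 and 2 Mb from EYA4, the direction was mixed. AKAP7, ENPP1 and HBS1L had log2 fold changes of -0.37, -0.37 and -0.28, whereas MED23 and AHI1 had 0.24 and 0.35. CCN2, a secreted matricellular protein, was down-regulated, with 566, 524 and 221 counts in WT and 10, 10 and 5 in KO libraries (log2 fold change -5.72, SE 0.167, adjusted p = 2.02e-24, edgeR). DNA copy number was not measured in these libraries, and its part in the values of this region was not tested.

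Around the other members the medians lay nearer to 0, a difference that was not tested. In the same window of 1 Mb, the median log2 fold change was 0.10 over 5 tested genes around EYA1, 0.12 over 17 around EYA2, -0.10 over 42 around EYA3 and -0.10 over 6 around SIX2. It was -0.22 over 11 genes around SIX4, -0.29 over 53 around SIX5, -0.18 over 4 around DACH1 and -0.04 over 3 around DACH2. Log2 fold changes were negative for 42 of 53 genes around SIX5, 8 of 11 around SIX4 and 4 of 4 around DACH1. The same held for 27 of 42 around EYA3, 4 of 6 around SIX2 and 2 of 3 around DACH2. It held for 7 of 17 around EYA2 and 1 of 5 around EYA1, beside 8096 of all 16198 tested genes. Around SIX5 all KO values lay below all WT values for 33 genes and above them for 6, beside 33.5% and 32.8% of all tested genes. Of the 19 tested genes that overlap the 9 genes or are their nearest protein-coding neighbours, 1 was up-regulated, beside 8.30% of all tested genes. Another 1 was down-regulated, beside 7.73%, so these counts are near those shares. PTAFR, the receptor of platelet-activating factor, 58.5 kb from EYA3, was up-regulated from 0.421 ± 0.208 to 1.96 ± 0.139 CPM (n = 3 each). Its log2 fold change was 2.03 (SE 0.264, adjusted p = 5.31e-08, edgeR). PCDH9, a protocadherin, had 165, 209 and 75 counts in WT and 1, 0 and 1 in KO libraries and was down-regulated, at 4210 kb from DACH1. XKR8, 2.25 kb from EYA3, DMPK, 0.457 kb from SIX5, and CHM, 101 kb from DACH2, had log2 fold changes of -0.04, -0.03 and -0.04. SIX5 is overlapped on the opposite strand by the non-coding gene ENSG00000259605, at 0.596 ± 0.0836 CPM in WT and 1.15 ± 0.209 CPM in KO libraries. The library kit keeps the strand, but the strand setting of the counting is not given in the sources used here, so reads of this pair may not be separated.

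The partners, cofactors and targets of the network were taken as 5 lists of 50 genes, of which 36 were tested, 4 were up-regulated (8.30% of all tested genes were), 2 were down-regulated (7.73% of all tested genes were) and the median log2 fold change was 0.00. These counts are near those shares. SIX3, 59.1 kb from SIX2, was low and had a log2 fold change of -0.53 (SE 0.304, adjusted p = 0.127), and SIX6 had no count. Of 8 PAX genes 3 were tested. PAX6, the eye and pancreas factor upstream of the network, was up-regulated from 0.509 ± 0.159 to 2.00 ± 0.285 CPM (n = 3 each; log2 fold change 2.06, SE 0.263, adjusted p = 3.73e-08, edgeR), and PAX1 and PAX9 did not pass the test, with log2 fold changes of -0.13 and 0.01.

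All 18 genes listed as cofactors were tested, namely corepressors, histone deacetylases, acetyltransferases and TLE proteins, with SOBP and the G protein alpha subunits GNAI2 and GNAZ, which bind EYA proteins. None was up-regulated (8.30% of all tested genes were) and 1 was down-regulated (7.73% of all tested genes were). The median log2 fold change was -0.01. SOBP, a nuclear protein that binds SIX-family proteins, was the down-regulated gene. It had 2.42 ± 0.260 CPM in WT against 0.796 ± 0.0951 CPM in KO cells (n = 3 each). Its log2 fold change was -1.57 (SE 0.218, adjusted p = 1.94e-07, edgeR). By the adjusted p alone 6 cofactors were higher and 7 lower in KO cells, beside 31.9% and 32.0% of all tested genes, so these counts are close to the background. HDAC1 was among the latter (log2 fold change -0.58, SE 0.0479) and TLE5 among the former (log2 fold change 0.20, SE 0.0505).

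Of the 5 genes around the EYA phosphatase, its substrates and the H2AX tyrosine mark, ESR2, which encodes estrogen receptor beta, was up-regulated from 1, 4 and 0 counts to 21, 41 and 30. Over the summed libraries this was a ratio of 18.2 (95% interval 7.52 to 57.3, counting error only). Log2 fold changes were -0.12 for BAZ1B, the kinase of the tyrosine mark, -0.17 for its partner SMARCA5 and -0.07 for MDC1, which docks on serine-phosphorylated H2AX.

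Among 16 known targets of SIX-family and EYA proteins 8 were tested, with a median log2 fold change of 0.32. Of these, 2 were up-regulated (8.30% of all tested genes were) and 1 was down-regulated (7.73% of all tested genes were). The muscle targets MYOG, MYOD1, MYF5 and MYF6, and FGF10, had no count in any library. SALL1, a zinc finger repressor of kidney development, was up-regulated from 38.6 ± 5.20 to 106 ± 0.566 CPM (n = 3 each; log2 fold change 1.47, SE 0.0657, adjusted p = 2.62e-19, edgeR). IGFBP5, an insulin-like growth factor binding protein, was up-regulated from 2, 3 and 0 counts to 369, 433 and 347 (ratio of summed libraries 227, 95% interval 97.0 to 701, counting error only). CCND1, the G1 cyclin, was down-regulated from 341 ± 14.0 to 166 ± 2.90 CPM (n = 3 each; log2 fold change -1.04, SE 0.0477, adjusted p = 5.63e-19, edgeR). The targets past both thresholds thus went in both directions. By the adjusted p alone 6 of the 8 were higher and 1 was lower in KO cells, beside 31.9% and 32.0% of all tested genes. MYC was higher by 0.29 on the log2 scale (adjusted p = 6.03e-06, edgeR), under the fold threshold.

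The genes whose profile over the 6 libraries was nearest to that of EYA4 were LMO4, a LIM-only transcription cofactor, IGF2BP3, an oncofetal RNA-binding protein, and FIGN. Their distances to EYA4, on centred log2(CPM + 0.1) values, were 0.550, 0.616 and 0.654. Such a distance largely restates the size of the difference between KO and WT, by which the members were chosen. The added 0.1 CPM also limits that size for genes without KO counts, so the ranking is a description only. LMO4 went from 550.0 to 1.43 CPM and IGF2BP3 from 50.9 to 0.0323 CPM. None of these 3 genes lies on chromosome 6. The genes nearest to SIX5, the member of smallest difference, were ELMOD2, XKR8 and PLEKHA1, at distances of 0.0628, 0.0791 and 0.0821. XKR8 is also the neighbour of EYA3 named above.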

How the data were processed

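RNA-seq counts of 6 A2780 libraries (3 WT, 3 CDK12 KO) were used, grouped by the genotype in the labels. The authors deposited raw counts per Ensembl gene, made with FastQC, STAR (GRCh38) and HTSeq; versions, annotation release and the strand setting are not given in the sources used here, and reads were stranded, single-end and 75 bases long. Of 60483 identifiers, 56321 matched GENCODE release 44. Genes were kept by filterByExpr (minimum count 10, minimum total 15), scaled by TMM and tested with the edgeR 4.0.16 quasi-likelihood test in R 4.3.3 with Benjamini-Hochberg adjustment over all tested genes; CPM used the same scaling, and SE was taken from the F statistic. Calls needed an adjusted p below 0.05 and a log2 fold change past 1 or -1, as in the study. On simulated counts for KO against WT (16118 genes) the test recovered 200 of 200 changed genes with 1 false call. The changed genes all had the same fold size, larger than the call threshold, and sufficient expected counts in every library. The same dispersion was used for every gene. Recovery of differences near the threshold or of genes near 0 counts was therefore not covered. Alternatives were limma 3.58.1 (voom), DESeq2 1.42.0, other scalings, filters and call rules, and leaving out each library. Libraries held 11098400 to 30899045 counts; intervals cover counting error only.

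The members and lists were chosen with earlier results of these data known. The text names all 9 members; of each list the genes past both thresholds and up to 3 tested genes with the highest mean CPM; overlapping or nearest protein-coding neighbours past both thresholds; and the 3 genes nearest in profile to the members of largest and smallest log2 fold change. Some genes of the lists are not reported here by name. The genes around EYA4, the neighbours next to EYA3, SIX5 and DACH2, DLX2, FIGN and the targets without counts were added after the values were seen.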

Additional observations from a re-analysis of the deposited data

How the results depend on the processing

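No paired analysis was possible because the labels number the WT libraries 1 to 3 and the KO libraries 4 to 6, so the groups share no number. None of the 7 tested members changed sign in the 12 alternatives (11 for EYA4, which the stricter filter removes; EYA1 and DACH1 did not pass the filter), and the log2 fold changes ranged from -1.10 to -0.98 for DACH2, from -0.55 to -0.45 for SIX4, from -0.50 to -0.34 for SIX2, from -0.46 to -0.33 for EYA3, from -0.17 to -0.09 for EYA2 and from -0.16 to -0.06 for SIX5. With at least 10 counts in every library, which removes EYA4, 13405 genes were tested, 568 were up-regulated and 684 down-regulated, with 1 member down, 1 list gene up, 0 neighbours up or down, and 4 genes down around EYA4. With the adjusted p alone, 5165 genes were higher and 5188 lower, with 5 members lower, 14 list genes higher and 10 lower, 4 neighbours higher and 5 lower, and 11 genes lower around EYA4. In a test against the fold threshold, 756 genes were up-regulated, and 1 member, 1 list gene and 3 genes around EYA4 were down; the share up-regulated among the called was then 44.8%, and 45.4% with at least 10 counts, against 51.8%. Leaving out 1 library gave 1 to 2 members down (1 without WT replicate 2, DACH2 being lost) and 1 to 2 neighbours up (2 without WT replicate 1 or KO replicate 2). Per kilobase of the longest transcript, levels were 4.38 in WT and 3.91 in KO for EYA2, 7.81 in WT for EYA4, 0.882 and 0.431 for DACH2, and in KO 4.37 for EYA3, 4.14 for SIX4 and 6.65 for SIX5; by library totals SIX2 was at 21.7 in WT. The alternatives for the genes around EYA4 were chosen after seeing the data. Counts of 0 limit EYA1 in all libraries, and EYA4 in the KO libraries, to the floors given. DACH1, with 2, 0 and 0 counts in WT and 0, 1 and 0 in KO libraries, lay below the same floors. Having 3 libraries a group limits the precision of differences such as those of EYA2 and SIX5.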
